A study of Mus musculus with 4 samples.

Results

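Isolated CpG clusters are short stretches of densely spaced, well-covered cytosines that lie far from any other such stretch. A covered position was a cytosine of an autosome with at least 5 methylation calls in each of the iPSC, iPSC-DA neuron and mdDA neuron libraries. Runs of at least 10 covered positions with less than 100 bp between neighbours were taken as clusters, and a cluster of 10 to 59 positions counted as isolated when the edge of the nearest other cluster was more than 100000 bp away. This rule, which uses positions and call numbers and no methylation level, gave 1297 isolated clusters out of 17133 autosomal clusters, with 32490 of 540677 clustered positions. The other 15836 clusters served for comparison, and 13701 of them had 10 to 59 positions like the isolated clusters. Another 302 clusters were equally remote but had 60 or more positions, and these were counted with the other clusters.

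Reduced representation bisulfite sequencing reads the methylation of cytosines near cut sites of MspI, an enzyme that cuts at CCGG. It was applied to 4 mouse cell populations, with 1 library each. The iPSCs (strain Pitx3 Gfp/+) had been reprogrammed from embryonic fibroblasts with retroviruses carrying Oct4, Klf4, Sox2 and cMyc. The iPSC-DA neurons (strain Pitx3 Gfp/+) were differentiated from such iPSCs for about 4 weeks on MS5 stromal feeder cells with Noggin, a TGF-β inhibitor, SHH, FGF8 and BDNF, and were sorted on GFP driven by the Pitx3 locus, which is active in midbrain dopaminergic neurons. The mdDA neurons (strain Pitx3 Gfp/+) were sorted on the same reporter from the midbrain of E14.5 embryos. The NESTIN-GFP precursors (strain Nestin Gfp/+, labelled as neurons) came from a different iPSC line after 14 days of differentiation, so that cell line and stage cannot be told apart in that library. The Pitx3 Gfp/+ cells carry 1 copy of the reporter allele in place of Pitx3. Identity could not be checked against marker expression, since the files hold methylation calls only.

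CpG islands are short regions rich in CpG and GC that often contain promoters. In most tissues they stay unmethylated while the CpG-poor genome around them is methylated, and gain of methylation at a promoter island is known to go with stable silencing of its gene. CpG density differs widely along mouse chromosomes. Gene-rich domains hold many islands, whereas gene-poor domains hold few, and the islands of such domains often belong to developmental and neuronal genes with long introns or large intergenic surroundings.

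Isolated clusters resembled the others in size. They held a median of 21 positions over 233 bp, against 22 positions over 239 bp for the other clusters. Their surroundings differed by construction. The nearest other cluster was a median of 176666 bp away (range 100083 to 5068120 bp), and a median of 17 covered positions lay within 100 kb of an isolated cluster outside it, against 162 for the other clusters. The median depth at a position of an isolated cluster was 81 calls in iPSCs, 86 in iPSC-DA and 77 in mdDA neurons, against 87, 88 and 74 at other clusters. The precursor library was shallower, with a median of 16 calls in both sets, and levels in precursors were taken in 1243 isolated clusters, those where 5 or more positions had 5 or more calls in each of the 4 libraries. Isolation depends on which positions were covered. When runs were built from the iPSC library alone, 1115 of the 1297 isolated clusters (86.0%) still had no other run within 100 kb.

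Clusters could not be looked up in a genome of matching build here. They were placed at genes by the spacing of their covered cytosines. This spacing was compared with the CpG pattern of the RefSeq promoters (GRCm38.p6), each taken from 250 bases before to 50 bases after a gene's start. A placement required at least 12 covered positions within the window, all on CpGs, at a single window position on the same chromosome, and an offset between the builds within 2000 bases of that of a neighbouring placement. Of 3861 clusters with a single window position, 3692 (95.6%) met the last condition, against 0 of 190 when the spacings were mirrored. By this rule 266 isolated clusters (20.5%) were placed at a promoter, and 231 of them at that of a single gene. The remaining 1031 were not placed, which does not show that they lie outside promoters. Both sets of placed promoters were GC-rich, with a median GC content of 68.0% and a median CpG observed over expected of 0.861 in the windows of isolated clusters and of 68.3% and 0.871 in those of other clusters of 10 to 59 positions, against 53.0% and 0.389 over all 31396 promoter windows. GGGCGG, the letters of the GC box, stood on either strand in 78.9% of the windows of isolated clusters, 82.2% of those of other clusters and 36.0% of all windows. TATAAA stood on either strand in 3.38%, 3.35% and 13.6%. Neither motif overlaps the other. By these measures the placed promoters of isolated clusters were close to those of the other clusters. Placement itself required at least 12 covered positions on CpGs in the window, so both sets are rich in CpG by the rule. Their likeness, and their distance from all windows, therefore cannot be read as traits of isolated clusters.

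The promoters that the gene results below turn on are given here as the 250 bases before the start of each gene, 5′ to 3′ along the gene's strand, from RefSeq with GRCm38.p6 coordinates. Capitals mark each CpG with a covered cytosine of the isolated cluster on either strand. Drd2 (chr9:49340153-49340402, plus strand), the dopamine D2 receptor and an autoreceptor of midbrain dopaminergic neurons, had 8 of its 15 CpGs covered. Isl1 (chr13:116309689-116309938, minus strand), a LIM homeodomain factor of motor and other neurons, had 20 of 33 covered. Slit3 (chr11:35121206-35121455, plus strand), a secreted axon guidance ligand, had 12 of 35 covered. Ntm (chr9:29412686-29412935, minus strand), the neuronal adhesion protein neurotrimin, had 10 of 14 covered. Glp1r (chr17:30901617-30901866, plus strand), the receptor of glucagon-like peptide 1, had 14 of 26 covered. These 5 are shown because their clusters were far more methylated in iPSC-DA neurons than in the other Pitx3 Gfp/+ libraries.
Drd2: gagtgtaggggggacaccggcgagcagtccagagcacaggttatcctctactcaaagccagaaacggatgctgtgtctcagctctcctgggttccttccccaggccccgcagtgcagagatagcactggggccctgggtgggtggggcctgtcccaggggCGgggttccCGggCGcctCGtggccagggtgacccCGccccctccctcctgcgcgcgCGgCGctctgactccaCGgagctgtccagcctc
Isl1: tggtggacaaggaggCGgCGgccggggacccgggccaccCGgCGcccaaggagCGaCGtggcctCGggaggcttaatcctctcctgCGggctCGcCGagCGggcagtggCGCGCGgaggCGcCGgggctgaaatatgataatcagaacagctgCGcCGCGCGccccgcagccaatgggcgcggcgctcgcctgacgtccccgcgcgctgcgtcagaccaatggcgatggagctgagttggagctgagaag
Slit3: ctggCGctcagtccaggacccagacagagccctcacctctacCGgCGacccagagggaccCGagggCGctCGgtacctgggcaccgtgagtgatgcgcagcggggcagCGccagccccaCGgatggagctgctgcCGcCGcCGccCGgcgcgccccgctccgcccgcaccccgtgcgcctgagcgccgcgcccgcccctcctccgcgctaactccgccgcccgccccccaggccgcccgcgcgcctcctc
Ntm: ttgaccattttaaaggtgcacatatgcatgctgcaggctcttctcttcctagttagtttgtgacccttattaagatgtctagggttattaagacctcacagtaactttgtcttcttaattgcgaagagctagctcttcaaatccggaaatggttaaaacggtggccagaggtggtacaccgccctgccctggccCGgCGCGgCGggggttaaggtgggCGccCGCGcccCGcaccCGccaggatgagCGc
Glp1r: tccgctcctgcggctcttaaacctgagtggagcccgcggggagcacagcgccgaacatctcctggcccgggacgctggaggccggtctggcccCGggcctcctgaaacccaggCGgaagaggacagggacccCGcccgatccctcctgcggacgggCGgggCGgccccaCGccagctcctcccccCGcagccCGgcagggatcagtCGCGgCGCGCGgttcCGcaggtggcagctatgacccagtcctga
The other 3 promoters are shown as contrasts. Ddx4 (chr13:112652311-112652560, minus strand), an RNA helicase of the germline whose promoter is known to be methylated in somatic cells, had 23 of 31 CpGs covered. Sema3c (chr5:17574566-17574815, plus strand), a secreted semaphorin that guides axons, had 19 of 39 covered. Mtmr10 (chr7:64287420-64287669, plus strand), a member of the myotubularin family, had 13 of 29 covered.
Ddx4: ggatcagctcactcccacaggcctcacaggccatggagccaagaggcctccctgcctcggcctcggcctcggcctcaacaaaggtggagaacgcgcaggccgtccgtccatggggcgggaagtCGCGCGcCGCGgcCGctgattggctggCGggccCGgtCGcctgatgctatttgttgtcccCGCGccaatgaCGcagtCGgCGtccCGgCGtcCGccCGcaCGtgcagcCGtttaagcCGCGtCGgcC
Sema3c: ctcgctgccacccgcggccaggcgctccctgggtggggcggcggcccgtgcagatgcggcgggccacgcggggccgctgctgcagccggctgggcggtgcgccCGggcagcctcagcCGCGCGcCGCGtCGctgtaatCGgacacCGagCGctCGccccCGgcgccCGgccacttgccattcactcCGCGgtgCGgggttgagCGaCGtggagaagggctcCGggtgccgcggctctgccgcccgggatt
Mtmr10: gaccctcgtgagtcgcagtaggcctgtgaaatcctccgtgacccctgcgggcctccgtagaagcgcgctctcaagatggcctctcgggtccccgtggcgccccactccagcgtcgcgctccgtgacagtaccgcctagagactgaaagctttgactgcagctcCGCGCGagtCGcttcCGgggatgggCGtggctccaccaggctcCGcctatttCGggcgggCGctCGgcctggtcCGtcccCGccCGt
Promoters with many CpGs in this stretch (Slit3 with 35, Sema3c with 39) and with few (Drd2 with 15, Ntm with 14) were thus found among the genes whose levels are described below.

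Isolated clusters were little methylated in iPSCs and mdDA neurons and much more often partly methylated in iPSC-DA neurons. Levels were computed by pooling the calls of a cluster and taking the percent that were methylated. The median level of the isolated clusters was 5.04% in iPSCs (95% interval of the median over clusters 4.87 to 5.16), 12.8% in precursors (11.7 to 14.2), 19.5% in iPSC-DA (13.3 to 24.1) and 6.03% in mdDA neurons (5.84 to 6.19). The medians of the other clusters were 4.65%, 9.03%, 8.52% and 5.66%. The iPSC-DA median stood furthest above that of the other clusters, but it lies in a sparsely filled part of a distribution with separate peaks, and so moves easily. Of the 1297 isolated clusters, 564 (43.5%) were under 10% in iPSC-DA neurons, 128 (9.87%) at 10 to 25%, 390 (30.1%) at 25 to 50%, 83 (6.40%) at 50 to 75% and 132 (10.2%) at 75 to 100%. The 15 points from 30 to 45% alone held 291 isolated clusters (22.4%), against 16.1% of the other clusters of 10 to 59 positions. The same range held 25 isolated clusters in iPSCs and 7 in mdDA neurons. The iPSC-DA level was above both the iPSC and the mdDA level in 861 isolated clusters (66.4%), between them in 335 and below both in 101. These counts take differences of any size, and the median difference of iPSC-DA from mdDA neurons was 1.34 points. They were not made for the other clusters, so they do not set isolated clusters apart.

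**Figure D1:**
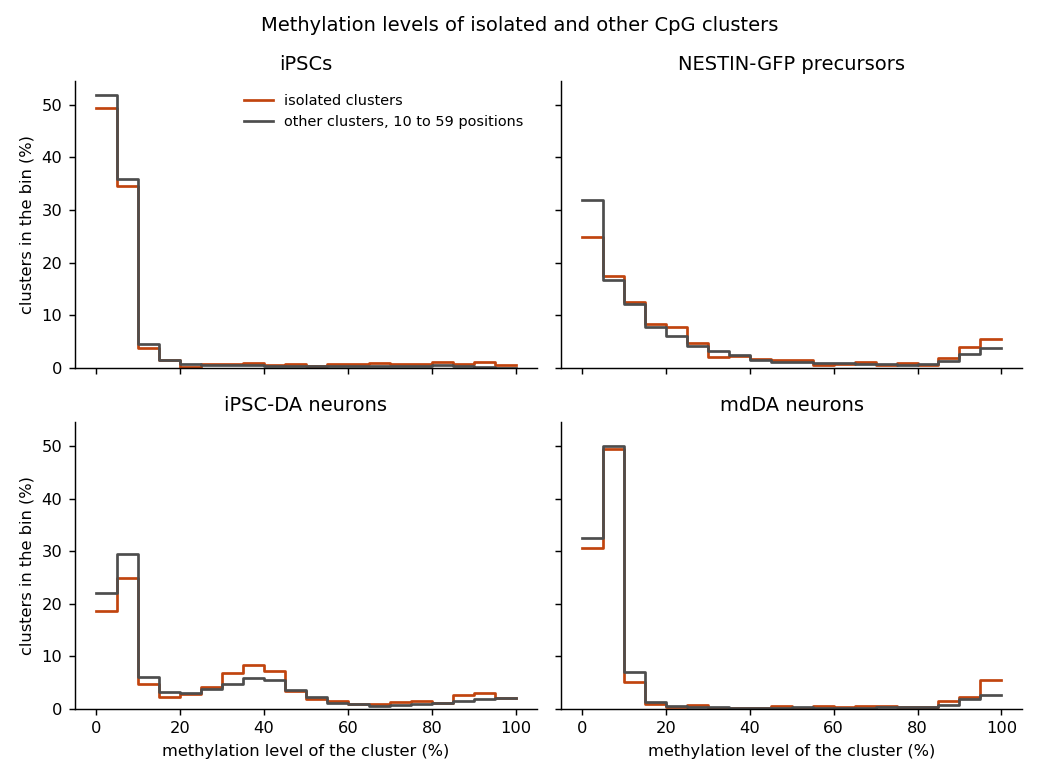
Share of clusters (vertical axis, percent of the clusters of each set) in bins of 5 points of methylation level (horizontal axis, percent) in each library, for isolated clusters and other clusters of 10 to 59 positions. In iPSCs and mdDA neurons both sets pile up under 10%, whereas iPSC-DA neurons show a separate peak around 30 to 45% that held 22.4% of isolated and 16.1% of other clusters.

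A small set of isolated clusters was highly methylated. Levels over 80% were seen in 3.47% of isolated clusters in iPSCs, 8.79% in iPSC-DA and 9.41% in mdDA neurons, against 0.77%, 5.60% and 4.95% of the other clusters. In iPSCs 141 isolated clusters were at 20% or more, with a median of 66.8% in iPSCs, 94.6% in precursors, 87.6% in iPSC-DA and 93.8% in mdDA neurons.

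To ask where methylation differed between libraries, the calls of each cluster were compared by a two-sided Fisher's exact test, adjusted by Benjamini-Hochberg over all clusters tested, and a cluster was called at an adjusted p under 0.05 when the levels differed by 20 percentage points or more. Calls on 1 read or from PCR copies are not independent, and each condition has 1 library, so the calls describe these libraries and their p-values are too small. Differences between isolated and other clusters carry no test, and the Wilson 95% intervals given with shares cover the counting of clusters only. In iPSC-DA neurons 523 of 1297 isolated clusters (40.3%, interval 37.7 to 43.0) were called higher than in iPSCs, where the share over all clusters was 33.3% and that of the other clusters 32.8%. Against mdDA neurons, 439 isolated clusters (33.8%, interval 31.3 to 36.5) were called higher in iPSC-DA neurons, with 27.8% over all clusters and 27.4% of the others. Precursors were called higher than iPSCs in 300 of 1243 isolated clusters (24.1%, interval 21.8 to 26.6), with 20.9% over all clusters. mdDA neurons were called higher than iPSCs in 105 isolated clusters (8.10%, interval 6.73 to 9.71), with 5.88% over all clusters.

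Calls of lower methylation were rare everywhere. Over all clusters they made up 0.0876% for iPSC-DA neurons against iPSCs, 0.0123% for precursors against iPSCs, 0.344% for mdDA neurons against iPSCs and 0.198% for iPSC-DA against mdDA neurons. Isolated clusters supplied 4, 1, 12 and 9 of them, which is 0.308%, 0.0805%, 0.925% and 0.694% of the isolated clusters tested. The shares of the other clusters were smaller, at 0.0695%, 0.00666%, 0.297% and 0.158%. For either kind of neuron, a loss of 20 points against iPSCs needs an iPSC level of at least 20%. Such a level was seen in 141 isolated and 836 other clusters of 10 to 59 positions. Among these, 8.51% of isolated (interval 4.94 to 14.3) and 5.62% of other clusters (4.25 to 7.40) were lower in mdDA neurons. In iPSC-DA neurons the shares were 2.84% (1.11 to 7.07) and 1.32% (0.736 to 2.34), so the intervals overlap. The 12 isolated clusters lower in mdDA neurons than in iPSCs were short, with 10 to 15 positions, and were between 39.3% and 92.2% in iPSCs. They were between 7.42% and 68.0% in mdDA neurons, with a median of 28.0%, while their median was 72.1% in iPSC-DA neurons.

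The excess of isolated clusters held on most autosomes. The iPSC-DA median of the isolated clusters was above that of the other clusters on 19 of 19 autosomes, with 7.97% to 36.0% for isolated and 6.28% to 10.4% for other clusters. The share called higher in iPSC-DA than in mdDA neurons was greater for isolated clusters on 17 of 19 autosomes, the exceptions being 2 and 19, and the share called higher than in iPSCs also on 17. The counts were 15 of 19 for precursors over iPSCs and 13 of 19 for mdDA neurons over iPSCs. Chromosome 10 had more calls in the iPSC-DA library relative to mdDA neurons, by 0.40 on the log2 scale against the median autosome, where the other autosomes lay between -0.12 and 0.13. Without chromosome 10, 33.6% of isolated and 27.5% of other clusters were called higher in iPSC-DA than in mdDA neurons.

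**Figure D2:**
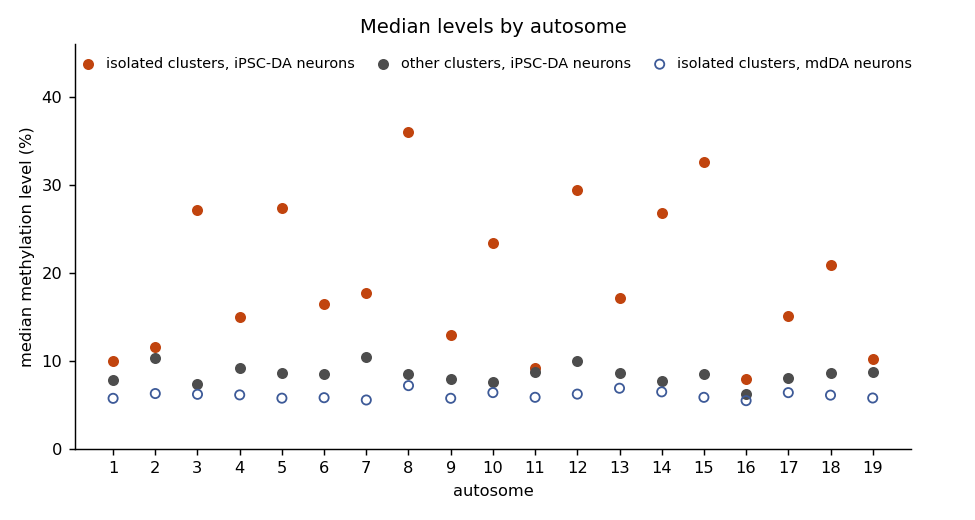
Median methylation level (vertical axis, percent) of isolated clusters in iPSC-DA neurons and mdDA neurons and of other clusters in iPSC-DA neurons, by autosome (horizontal axis). On 19 of 19 autosomes the isolated clusters were higher than the other clusters in iPSC-DA neurons, by little on autosomes such as 11 and 16 and by the most on 8, where the isolated median was 36.0%.

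Distance to the nearest cluster did not act as a steady gradient. Among clusters of 10 to 59 positions, 30.4% of those with a neighbour within 1 kb were called higher in iPSC-DA than in mdDA neurons, 34.0% at 1 to 10 kb, 20.3% at 10 to 30 kb, 20.3% at 30 to 100 kb and 33.8% beyond 100 kb. By this share isolated clusters stood apart from clusters with a neighbour at 10 to 100 kb, and little from those with a neighbour within 10 kb. The shares called higher than in iPSCs were 33.0%, 45.1%, 30.9%, 27.9% and 40.3% in the same order. By these, isolated clusters were above those with a neighbour within 1 kb and below those at 1 to 10 kb. Their median iPSC-DA level, 19.5%, also lay between the 8.82% and 24.3% of these classes. With isolation set at over 50 kb in place of 100 kb, the shares called higher in iPSC-DA than in mdDA neurons were 27.9% for 2576 isolated and 27.8% for other clusters. The isolated clusters at 100 to 150 kb, with 27.1%, showed no excess over the other clusters, with 27.4%. The excess of the isolated set was thus seen only in its clusters beyond 150 kb. For precursors and mdDA neurons the shares differed little across 100 kb. Their shares called higher than iPSCs were 23.1% and 8.46% at 30 to 100 kb and 24.1% and 8.10% beyond. The median precursor level was 9.87% at 30 to 100 kb and 12.8% beyond.

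Among the isolated clusters themselves, the shares in iPSC-DA neurons were higher at longer distances. The 532 isolated clusters at 100 to 150 kb from the next were called higher in iPSC-DA than in mdDA neurons in 27.1% of cases (interval 23.5 to 31.0), the 338 at 150 to 250 kb in 36.7% (31.7 to 41.9) and the 427 beyond 250 kb in 40.05% (35.5 to 44.8). The shares over iPSCs were 34.4%, 39.6% and 48.2%. In precursors they were 24.3%, 24.3% and 23.8%. The median iPSC-DA level went from 9.68% through 20.4% to 31.7%, and the median precursor level from 10.8% through 13.8% to 14.3%.

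**Figure D3:**
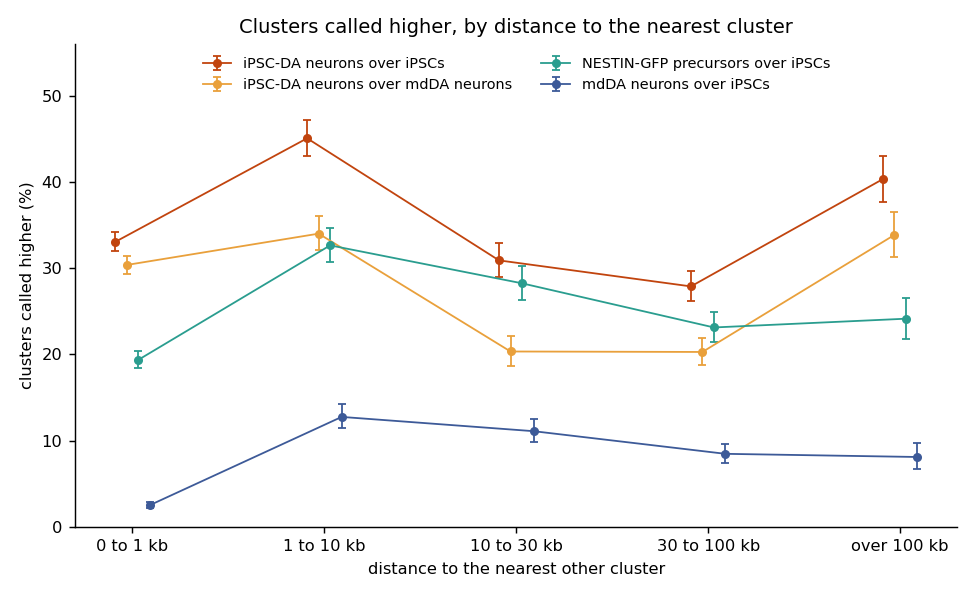
Share of clusters of 10 to 59 positions called higher (vertical axis, percent) by distance to the nearest other cluster (horizontal axis), for 4 comparisons of libraries, with Wilson 95% intervals as bars. Both comparisons with iPSC-DA neurons dip at 10 to 100 kb and are higher beyond 100 kb, at 40.3% over iPSCs and 33.8% over mdDA neurons, while the shares of precursors and mdDA neurons over iPSCs differ little between 30 to 100 kb and beyond.

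The comparisons differed in how they changed with size. Isolated clusters of 10 to 19 positions were called higher in iPSC-DA than in mdDA neurons in 31.9% of cases, close to the 29.1% of other clusters of that size. At 20 to 39 positions the shares were 35.5% and 27.0%, and at 40 to 59 positions 35.3% and 23.8%. Among other clusters this share was lower at larger sizes, and among isolated clusters it was not. Against iPSCs the isolated share was lower at larger sizes too, with 44.7%, 36.9% and 36.2% called higher in iPSC-DA neurons, where other clusters had 39.2%, 29.5% and 24.8%. The gains of mdDA neurons over iPSCs were mostly in short clusters. They were seen in 16.4% of isolated clusters of 10 to 19 positions against 11.1% of others of that size, in 1.42% against 2.29% at 20 to 39 positions, and in 0.917% against 0.816% at 40 to 59. The precursor gains followed size as well, with 41.5%, 13% and 5.96% of isolated clusters against 36.6%, 14.2% and 5.37% of other clusters. Against other clusters of 10 to 59 positions as a whole, 24.1% of isolated and 23.6% of other clusters gained in precursors.

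The level in iPSCs mattered in the same way. Where iPSCs were under 5%, 34.0% of 641 isolated clusters were called higher in iPSC-DA neurons than in iPSCs, against 24% of the other clusters of 10 to 59 positions. At 5 to 10% the shares were 44.4% and 36.6%, and at 10 to 20% they were 68.7% and 66.4%. At 20% or more they turned, with 42.6% of isolated and 67% of other clusters. The isolated clusters there had a higher median in iPSCs (66.8% against 49.6%). By density of covered positions (under 7, 7 to 10, 10 to 13 and 13 or more per 100 bp), the median iPSC-DA level of isolated clusters was 33.5%, 14.6%, 11.2% and 23.7%. The shares called higher in iPSC-DA than in mdDA neurons were 29.6%, 35.05%, 35.7% and 33.9%. For other clusters of 10 to 59 positions they were 28.1%, 26.1%, 27.7% and 29.0%. Over iPSCs, 40.9% of isolated and 43.4% of other clusters under 7 per 100 bp were called higher in iPSC-DA neurons. Precursor gains were most frequent in the sparsest isolated clusters, at 47.1% against 15.5% at 10 to 13 positions per 100 bp, and so were those of mdDA neurons, at 17.1% against 4.22%. Other clusters of 10 to 59 positions showed this too, at 45.8% against 15.6% in precursors and 17.6% against 2.70% in mdDA neurons.

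A cluster could gain methylation in any combination of libraries. Of the 1243 isolated clusters measured in all 4, 649 (52.2%) were called higher than iPSCs in none. The largest group of the rest, 289 clusters (23.3%, interval 21 to 25.7), was called in iPSC-DA neurons alone, against 18.8% of the other clusters. Another 128 (10.3%) were called in precursors and iPSC-DA neurons, 88 (7.08%) in precursors and both kinds of neuron, and 74 (5.95%) in precursors alone. These shares were 8.54%, 5.50% and 6.34% in the other clusters. The remaining isolated clusters were 10 called in precursors and mdDA neurons, 3 in mdDA neurons alone and 2 in both kinds of neuron. All of these comparisons share the iPSC library.

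The gains that mdDA neurons shared had a different make-up from those of iPSC-DA neurons alone. The 103 isolated clusters called in mdDA neurons had a median of 12 positions and a median iPSC level of 33.7%, and 98 of them were also called in precursors and 90 in iPSC-DA neurons. The 417 called in iPSC-DA but not in mdDA neurons had a median of 24 positions and a median iPSC level of 5.06%. Their median difference from iPSCs was 33.1 points in iPSC-DA neurons (quartiles 28.7 and 38.2), 14.3 points in precursors (7.32 and 23.7) and 0.756 points in mdDA neurons (-0.0638 and 1.55). Precursors were called higher in 128 of these 417 (30.7%), and the same share was 31.2% in the other clusters. The difference in make-up was not particular to isolated clusters. Other clusters called in mdDA neurons had medians of 13 positions and 24.2% in iPSCs. Those called in iPSC-DA but not in mdDA neurons had 22 positions and 4.94%.

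**Figure D4:**
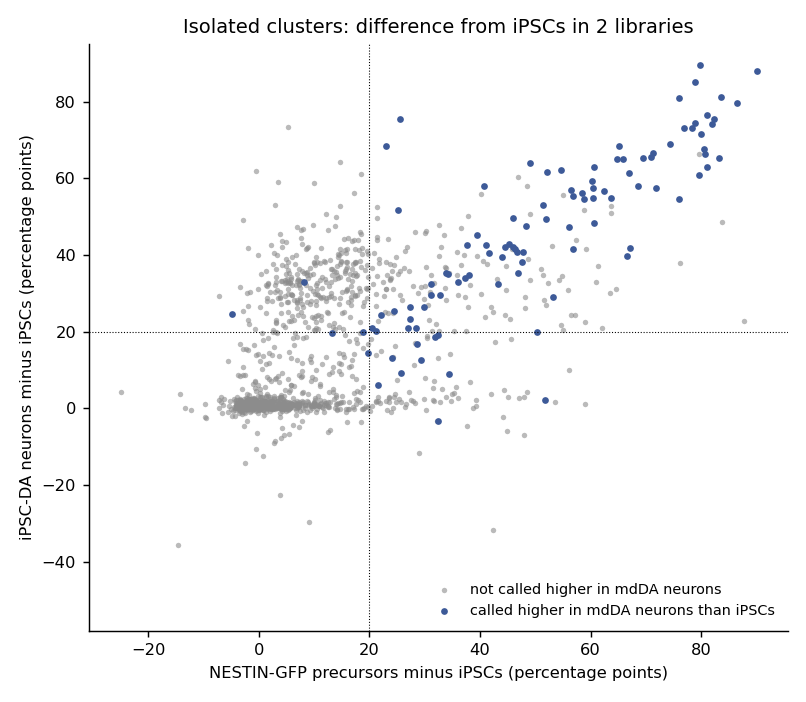
Each point is 1 of the 1243 isolated clusters, with its difference from iPSCs in NESTIN-GFP precursors (horizontal axis, percentage points) and in iPSC-DA neurons (vertical axis, percentage points), and dotted lines at 20 points. Clusters called higher in mdDA neurons lie mostly along the diagonal with both differences large, whereas a separate group between 20 and 50 points in iPSC-DA neurons has small to moderate differences in precursors.

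Within partly methylated isolated clusters the level was spread over the positions and did not come from a few methylated cytosines. In the 528 isolated clusters at 20 to 80% in iPSC-DA neurons, a median of 87.0% of the positions were themselves at 20 to 80% (quartiles 72.7 and 95.2), and the SD between positions had a median of 14 points. Other clusters of 10 to 59 positions were alike, with medians of 85.7% and 14.3 points. The files give no reads, so that molecules methylated throughout and molecules methylated in part cannot be told apart.

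The edges of isolated clusters were more methylated than their interiors in each library. In iPSC-DA neurons the mean level was 29.4% at positions within 24 bp of the edge, 24.3% at 25 to 49 bp, 22.5% at 50 to 99 bp and 19.9% at 100 bp or more. The corresponding values from the outermost to the innermost positions were 31.1% and 14.4% in precursors, 17.4% and 7.09% in mdDA neurons and 12.4% and 5.34% in iPSCs. The innermost positions come from the longer clusters only. In the interior iPSC-DA neurons had the highest mean of the 4 libraries, and at the edge precursors did. A fall towards the interior was also seen in other clusters of 10 to 59 positions, from 23.3% to 17.9% in iPSC-DA and from 12.6% to 8.12% in mdDA neurons.

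Outside the clusters the mean levels kept the order of the edge, with precursors highest, then iPSC-DA neurons, mdDA neurons and iPSCs. Medians did so up to 2 kb, but from there mdDA neurons were above iPSC-DA neurons. The medians were 87.0% in mdDA against 80% in iPSC-DA neurons at 2 to 10 kb and 90.3% against 84.9% at 10 to 50 kb. At 2 to 10 kb from the edge the mean was 54.6% in iPSCs, 83.8% in precursors, 71.1% in iPSC-DA and 68.6% in mdDA neurons, and at 10 to 50 kb it was 57.3%, 87.5%, 73.2% and 72.3%. The mean of iPSC-DA neurons exceeded that of mdDA neurons by 12.02 to 12.8 points in the bins inside the clusters, by 12.1 points at 100 to 500 bp outside and by 14.2 points at 500 bp to 2 kb. The difference in means was 2.499 points at 2 to 10 kb and 0.813 points at 10 to 50 kb, so it extended past the cluster edges and was small only from 2 kb on. This was not particular to isolated clusters. Around the other clusters of 10 to 59 positions the means were 27.5% in iPSC-DA and 17.0% in mdDA neurons at 100 to 500 bp. They were 51.2% and 39.7% at 500 bp to 2 kb, 70.0% and 66.0% at 2 to 10 kb and 72.6% and 71.1% at 10 to 50 kb.

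**Figure D5:**
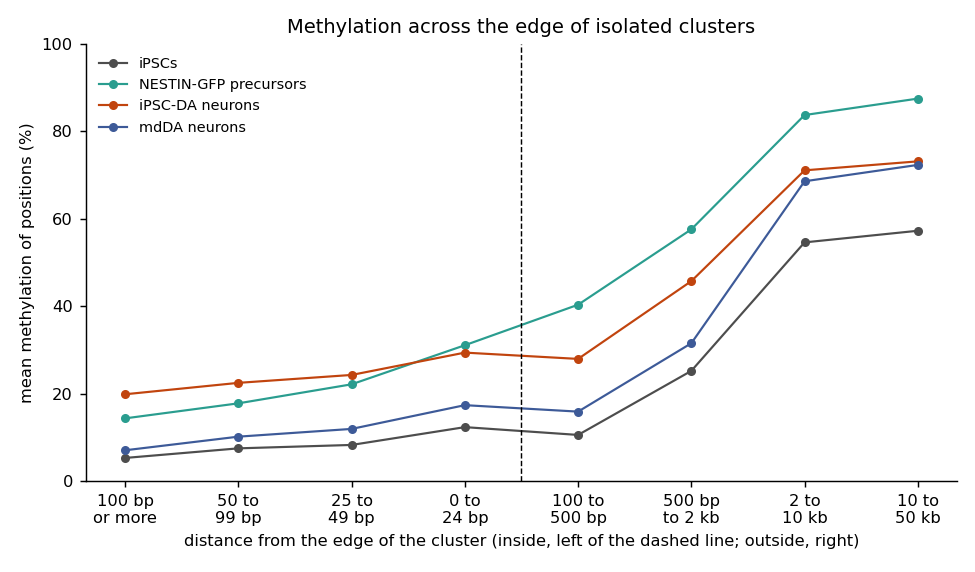
Mean methylation of positions (vertical axis, percent) by distance from the edge of isolated clusters (horizontal axis), inside the cluster to the left of the dashed line and outside it to the right, in each library. iPSC-DA and mdDA neurons are at 19.9% and 7.09% at 100 bp or more inside, furthest apart at 500 bp to 2 kb outside with 45.8% and 31.6%, and at 73.2% and 72.3% at 10 to 50 kb.

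At promoters the contrast between isolated and other clusters was wider. Of the 266 isolated clusters placed at a promoter, 78 (29.3%, interval 24.2 to 35.1) were called higher in iPSC-DA than in mdDA neurons, against 378 of 2450 other placed clusters of 10 to 59 positions (15.4%, interval 14.1 to 16.9). At 20 to 39 positions these shares were 32.5% and 14.9%, and at 40 to 59 positions 27.2% and 15.5%. Among clusters that were not placed they were 35.0% and 30.3%. Over iPSCs, 30.5% of isolated and 16.4% of other placed clusters were called higher in iPSC-DA neurons. Placed isolated clusters had a median of 7.83% in iPSC-DA neurons with an upper quartile of 32.3%, while the upper quartile of other placed clusters was 11.0%. In mdDA neurons 3 of 266 placed isolated clusters (1.13%) were called higher than in iPSCs, against 11 of 2450 other placed clusters (0.449%), and 2 were called lower, against 0.

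The 231 isolated clusters at a single gene fell into separate groups. Compared with mdDA neurons, 75 were called higher in iPSC-DA neurons and none lower, and 132 (57.1%) differed by less than 5 points either way. The 75 had a median of 4.71% in iPSCs, 18.6% in precursors, 38.5% in iPSC-DA and 5.52% in mdDA neurons, and their iPSC-DA levels spanned 24.5% to 90.3%. The 156 not called had medians of 4.45%, 4.98%, 5.80% and 5.52%.

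Genes of neuronal function were present in both groups. In a list of neuronal adhesion and synapse genes drawn up by gene name (families such as Cdh, Pcdh, Cntn, Nrxn, Gria and Kcn), 3 had an isolated cluster placed at their promoter. Kcnk2, a background potassium channel, was at 5.09% in iPSCs, 10.0% in precursors, 40.1% in iPSC-DA and 5.27% in mdDA neurons. Kcnj2, an inward rectifier potassium channel, was at 4.66%, 17.5%, 39.5% and 4.81% in the same order. Both were called higher in iPSC-DA than in mdDA neurons, with adjusted p = 1.52e-246 and 9.55e-191 by Fisher's exact test. Pcdh18, a protocadherin, was at 4.24% in iPSCs, 0% in precursors over 30 calls (Wilson upper bound 11.4), 6.70% in iPSC-DA and 7.96% in mdDA neurons, and was not called. The median difference of these 3, 34.7 points, is the value of Kcnj2, where all 231 had a median of 1.39 points. Called higher were 2 of these 3 and 75 of all 231, and 3 genes are too few to compare the shares. A list of developmental transcription factor families drawn up in the same way (Sox, Pax, Fox, Lhx, Pou and others) had no member among the 231. The lists do not cover all genes of their kind. Isl1 and Mitf, which are transcription factors, and Ntm, Lin7a and Ctnna2, which act in adhesion or at synapses, had isolated clusters but bear none of the listed names.

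Drd2 lay in a cluster of 41 positions, 284482 bp from the next cluster. Its level was 3.59% in iPSCs over 3146 calls, 10.4% in precursors over 560 calls, 36.8% in iPSC-DA neurons over 3363 calls and 3.81% in mdDA neurons over 3278 calls. The iPSC-DA library alone was high, and its difference from mdDA neurons had an adjusted p = 1.50e-272 by Fisher's exact test. Isl1, with 43 positions, was at 5.91%, 21.3%, 41.1% and 7.77%, and Slit3, with 26 positions, at 5.59%, 19.6%, 45.8% and 5.50%. In both, precursors lay above iPSCs and mdDA neurons and below iPSC-DA neurons. Ntm, with 54 positions and 1008260 bp to the next cluster, was at 3.55%, 19.8%, 59.7% and 4.56%. Lin7a, a scaffold protein of synapses, was at 6.29%, 13.1%, 53.5% and 8.02%, and Ctnna2, the neuronal alpha-catenin, at 2.48%, 18.4%, 44% and 4.19%.

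The order of precursors and iPSC-DA neurons was not the same at all genes. Psd4, an exchange factor for the small GTPase Arf6, was at 60.7% in precursors and 49.8% in iPSC-DA neurons, with 7.55% in iPSCs and 6.28% in mdDA neurons. Fam166c was at 77.0% in precursors and 40.6% in iPSC-DA neurons, with 18% in iPSCs and 8.13% in mdDA neurons. Mme, the peptidase neprilysin, was at 3.80% in precursors and 43.2% in iPSC-DA neurons, with 8.01% in iPSCs and 9.89% in mdDA neurons. Coq2, an enzyme of coenzyme Q synthesis, was at 44.4% in precursors and at 5.20%, 5.81% and 5.74% in iPSCs, iPSC-DA and mdDA neurons. The precursor library differs from the rest in its line and reporter, and the part of these in the values was not tested.

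Other promoters stayed low in each library. Sema3c was at 2.47% in iPSCs, 2.05% in precursors, 1.99% in iPSC-DA and 2.05% in mdDA neurons, and its cluster lay 785236 bp from the next. Mtmr10, which had among the smallest ranges over the 4 libraries, was at 4.13%, 4.52%, 4.48% and 4.37%. Mitf, a basic helix-loop-helix factor of pigment cells, was at 7.74%, 4.69%, 8.30% and 8.37%. Among axon guidance genes, then, Slit3 and Sema3c were both remote and both rich in CpG before the start, and differed in iPSC-DA neurons by 45.8% against 1.99%.

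Ddx4 was highly methylated in each of the 3 libraries other than iPSCs. Over 48 positions it was at 8.86% in iPSCs, 73.4% in precursors, 77.3% in iPSC-DA and 74.5% in mdDA neurons. It was the member of the germline list with an isolated cluster placed at its promoter, and the gain over iPSCs was shared by both kinds of neuron. Gm36794, a predicted gene chosen after its values were seen, went the other way. Its cluster of 14 positions was at 69.6%, 94.1% and 85.7% in iPSCs, precursors and iPSC-DA neurons and at 7.42% in mdDA neurons.

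Clusters with at least 20 positions and at least 10 calls at each position in the 3 defining libraries were ranked to name the extremes. The 5 largest gains of iPSC-DA over mdDA neurons included Glp1r, at 5.80% in iPSCs, 27.0% in precursors, 50.6% in iPSC-DA (Wilson interval 49 to 52.1 over 4139 calls) and 5.65% in mdDA neurons (4.75 to 6.71 over 2159 calls). Another 3 of the 5 lay on chromosome 10, where the iPSC-DA library had more calls, and none of these was placed at a promoter. In the coordinates of the files they were chr10:23943334-23943611 at 54.2% against 5.07%, chr10:36226792-36226986 at 52.4% against 4.39% and chr10:57514567-57514806 at 52.6% against 6.59%. In the first 2 iPSCs were at 4.36% and 2.87%, and in the last at 10.9%. The largest loss against mdDA neurons under this rule, chr10:11211832-11211974, was 30.1% in iPSC-DA and 42.0% in mdDA neurons, under the 20 points of a call.

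The largest gain of mdDA neurons over iPSCs was also the largest of precursors. The cluster chr6:17790516-17790857 was at 7.71% in iPSCs, 84.5% in precursors, 92.9% in iPSC-DA and 81.5% in mdDA neurons. The next for both libraries was Ddx4. The cluster chr5:52759507-52759852 was at 12.6%, 72.8%, 71.9% and 46.1%, and chr11:68369612-68369903 was at 11.7%, 76.3%, 42.9% and 13.9%. In the first of these mdDA neurons had an intermediate level, and in the second they were near iPSCs while precursors were highest.

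The clusters farthest from any other did not share a level. The most remote, chr1:113761279-113761580 with 5068120 bp to the next cluster, was at 4.50% in iPSCs, 1.14% in precursors, 5.65% in iPSC-DA and 5.24% in mdDA neurons. The next, chr14:4437872-4438038 at 4185970 bp, was at 5.50%, 15.2%, 43.5% and 9.48%, and chr8:101939995-101940316 at 3367470 bp was at 10.9%, 16.9%, 58.6% and 9.13%. Just inside the limit of 100000 bp were clusters at 100083, 100193 and 100252 bp, with iPSC-DA levels of 3.87%, 74.8% and 9.44% and mdDA levels of 6.41%, 73.8% and 9.81%. Just outside it were clusters at 99992, 99882 and 99856 bp, with iPSC-DA levels of 27.2%, 3.61% and 85.8% and mdDA levels of 6.47%, 4.24% and 97.0%.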

How the data were processed

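RRBS data of 4 libraries were used, 1 per condition. Per the methods of the study, single reads of 40 bases were checked with FastQC, trimmed with Trim Galore (0.3.5 in the submitters' processing notes) and aligned and called with Bareback and Bismark (0.10.1). The authors deposited the count of methylated and of unmethylated calls at each cytosine with at least 1 call, and the percent of methylated calls, which is their ratio. No filter or normalization had been applied, and each strand is listed apart. The build is not given in the sources used here. The autosomes held 67882422 calls in iPSCs, 31076502 in precursors, 78277679 in iPSC-DA and 71927254 in mdDA neurons, and 1.81% to 4.28% of them lay in isolated clusters.

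Levels were pooled calls of a cluster. Fisher's exact tests, Benjamini-Hochberg adjustment, Wilson 95% intervals and order-statistic intervals of medians were computed in Python 3.11.15 with scipy 1.17.1 and numpy 2.4.6. The precursors were compared with iPSCs over positions with at least 5 calls in all 4 libraries. On simulated calls for iPSC-DA over mdDA neurons at 17133 clusters, 200 of 200 clusters changed by 30 points were called and 0 unchanged ones, which tests the code only.

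The isolated clusters, the gene lists and the tests were chosen with earlier results of these data known. Named clusters have at least 20 positions and at least 10 calls at each position in the 3 defining libraries, and are the 5 largest gains and 3 largest losses of iPSC-DA against mdDA neurons, the 3 largest gains over iPSCs of mdDA neurons and of precursors, and the 3 smallest ranges. The 3 most remote clusters, the 3 on each side of the distance limit, placed clusters with 20 or more positions and placed members of the lists could also be named. Which of the placed clusters are described was decided with their levels known. The rule for placing clusters at promoters was set after seeing the data. Alternatives changed the minimum of calls, the gap, the distance, the comparison set, the averaging, strands, high-coverage positions, the size of difference, depth and chromosomes.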

Additional observations from a re-analysis of the deposited data

How the results depend on the processing

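The iPSC-DA median of isolated clusters minus that of other clusters was 10.9 points and stayed above 0 under each alternative run, from 1.80 to 20.1 points. With a minimum of 1 call it was 17.8, 3.58 with strands merged, 1.80 with isolation over 50 kb and 20.1 with isolation over 200 kb. With isolation over 50 kb, 890 isolated clusters were called higher in iPSC-DA neurons than in iPSCs, 572 in precursors, 208 in mdDA neurons and 718 in iPSC-DA over mdDA neurons. With isolation over 200 kb the counts were 262, 129, 48 and 223. The numbers of isolated clusters were then 2576 and 571, and the shares called higher in iPSC-DA than in mdDA neurons 27.9% and 39.1%, against 33.8% at 100 kb. At a difference of 10 points 541 were called in precursors over iPSCs, and at 30 points 278 in iPSC-DA over mdDA neurons. The remaining alternatives kept each count within 1.5 times the value given above, and no direction was reversed. Isolated exceeded other clusters in the share called higher in iPSC-DA than in mdDA neurons by 0.0304 to 11.6 percentage points over 16 alternatives, and in the share of precursors over iPSCs by 0.557 to 8.06 over 17, the lowest against other clusters of 10 to 59 positions. Chosen after seeing the data were isolation in the iPSC library alone as well (35.4% called in iPSC-DA over mdDA neurons) and promoter matches of at least 16 positions (29.3% of 188 isolated against 15.7% of other clusters). No paired analysis was possible because each condition has 1 library, and leaving out a replicate was not possible for the same reason. Depth limits precursors most, at a median of 16 calls per position.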

Other observations

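The 302 clusters of 60 or more positions that also lay over 100 kb from another cluster were left out of the isolated set by its size limit. Their median level was 3.92% in iPSCs, 5.34% in precursors, 5.35% in iPSC-DA and 4.65% in mdDA neurons, with an upper quartile of 32.7% in iPSC-DA neurons. Called higher in iPSC-DA than in mdDA neurons were 93 of them (30.8%, interval 25.9 to 36.2), against 33.8% of the isolated set. Over iPSCs, 31.8% were called higher in iPSC-DA neurons and 2.32% in precursors.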
